A study of Mus musculus with 75 samples.

Results

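Fibroblasts carrying a C-terminally truncated RelA (RelA-dCterm) were set against fibroblasts carrying RelA without its transactivation domains (RelA-dTAD), time by time. The members are the 5 RelA-dCterm and the 5 RelA-dTAD libraries of the first deposited count table (set 1), 10 of the 75 libraries of the series. All cells were primary mouse embryonic fibroblasts of C57BL/6 background with the genotype p53-/- crel-/- rela-/-, given back 1 construct each with the pBABE-puro retrovirus. Every line was held overnight in 0.5% serum and received TNF at 10 ng/ml, and RNA was taken at 0 h (before TNF) and at 0.5, 1, 3 and 8 h. Polyadenylated RNA (1 µg of total RNA, 12 PCR cycles) was sequenced from stranded libraries as single-end reads of 50 bases. Cells with wild-type RelA (RelA-WT) and with the empty vector (EV) serve as levels for orientation. The labels do not give the residue at which either truncated protein ends, and they name 1 transduced population per construct. No unstimulated cells were taken at the later times, so time in low serum and TNF cannot be told apart in a change after TNF.

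NF-kB is a family of dimeric transcription factors that inhibitors of the IkB family hold in the cytoplasm until a signal such as TNF frees them. RelA binds DNA and dimerizes through its N-terminal Rel homology region and activates transcription through the C-terminal transactivation domains, which RelA-dTAD lacks. In fibroblasts NF-kB drives chemokine, adhesion and feedback genes, and interferon-stimulated genes are a separate program carried by STAT and IRF factors, which bind the interferon-stimulated response element.

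Rela (ENSMUSG00000024927.7, mm10 chr19:5637483-5648130) was checked first. Its level in RelA-dCterm cells was 531, 546, 641, 744 and 1728 CPM (reads scaled to the library's size) at 0, 0.5, 1, 3 and 8 h, against 1121, 1321, 1219, 1373 and 3883 CPM in RelA-dTAD cells. The RelA-dCterm library was the lower of the pair at every time, and both lines stood far above EV cells, which had 16.7 to 30.4 CPM. RelA-WT cells had 1149 to 1483 CPM. Averaged over the 5 times, Rela was lower in RelA-dCterm by a log2 of -1.07 ± 0.14 (SE, adjusted p = 2.66e-04). At 0 h alone the log2 difference was -1.08 ± 0.30 (adjusted p = 0.566), and the ratio of reads, RelA-dTAD over RelA-dCterm, was 2.11 (95% interval 2.02 to 2.21, counting error only). At 8 h Rela rose in both lines, by a log2 of 1.70 ± 0.31 in RelA-dCterm (adjusted p = 3.91e-04) and 1.79 ± 0.30 in RelA-dTAD (adjusted p = 2.29e-04). A shorter insert yields fewer reads per transcript and the inserts' lengths are not in the labels, so the amount of Rela RNA and the length of the insert cannot be told apart. The reads do not separate vector from chromosome either.

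**Figure D1:**
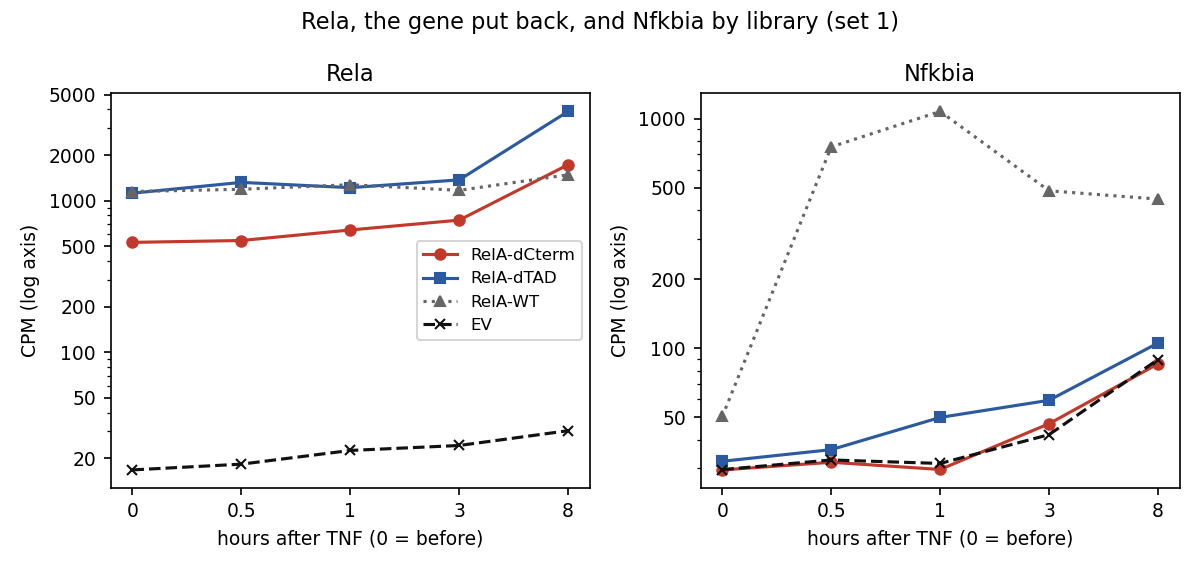
Level of Rela and of Nfkbia in CPM (log axis) at 0, 0.5, 1, 3 and 8 h after TNF, with 1 library per point, in RelA-dCterm, RelA-dTAD, RelA-WT and EV cells of set 1. Rela in RelA-dCterm lies below RelA-dTAD at each of the 5 times, and Nfkbia reaches 85.5 CPM in RelA-dCterm and 105 CPM in RelA-dTAD at 8 h.

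The other members of the family were close in both lines. Rel, the gene disrupted in these cells, had 18.2 to 30.2 CPM in RelA-dCterm and 16.5 to 33.4 CPM in RelA-dTAD, values that include exons outside any deleted part and so check no knockout. The log2 difference of the mean was 0.08 ± 0.12 for Rel, -0.13 ± 0.07 for Nfkb1 and -0.08 ± 0.06 for Nfkb2, which encode p105 and p100. For Relb it was -0.03 ± 0.15, and these 4 genes did not pass the test (adjusted p of 0.513 or above).

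Averaged over the 5 times, 415 of 15090 genes tested (2.75%) differed between the lines at an adjusted p under 0.05, of which 161 (1.07%) were higher and 254 (1.68%) lower in RelA-dCterm. Of the 254 lower genes, 246 were lower in all 5 pairs of libraries, 139 by more than 1.5-fold and 86 by more than 2-fold, with a median log2 of -0.71. Of the 161 higher genes, 144 were higher in all 5 pairs, 35 by more than 1.5-fold and 12 by more than 2-fold, with a median of 0.36. The median over all genes tested was -0.003. Of all 15090 genes tested, 1051 were lower and 1068 higher in all 5 pairs. In either direction 1921 differed by more than 1.5-fold and 1105 by more than 2-fold. The called genes were chosen on the mean of these same pairs, so their counts of pairs and folds describe the calls and do not test them. With 1 library per line and time, the spread came from other constructs that were sequenced in both deposited sets, on the assumption that these 10 libraries vary to the same extent. The labels name 1 transduced population per construct, and Rela reads were themselves lower in RelA-dCterm. The construct, the Rela level and the transduced population therefore cannot be told apart in these differences. In the fit without the set as a replicate block 13 genes were higher and 130 lower, and the number of higher genes was 100 without the 0.5 h pair and 105 without the 3 h pair.

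Among the gene lists, interferon-stimulated genes held the highest share of calls. Of 38 such genes 36 were lower in RelA-dCterm (94.7%, beside 1.68% of all genes lower) and none was higher. The median log2 of the 38 was -1.12, with a range of -2.38 to -0.42. Their summed level ran from 2204 to 3097 CPM in RelA-dCterm libraries and from 4452 to 6330 CPM in RelA-dTAD libraries, so the lines did not overlap. The share of all genes tested whose lines lie apart in this way was not counted, here or for the single genes below. The call held for 31 to 36 of them when 1 time was left out, for 33 without the replicate block and for all 38 with DESeq2.

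Isg15 encodes a ubiquitin-like protein that is conjugated to other proteins during antiviral responses. Its level was 80.4, 91.9, 107, 101 and 212 CPM in RelA-dCterm, against 285, 228, 272, 326 and 489 CPM in RelA-dTAD, a log2 difference of the mean of -1.47 ± 0.23 (adjusted p = 0.00143). Each RelA-dCterm library lay below every RelA-dTAD library. Genes of the factors that carry the interferon signal to DNA were lower too, Stat2 by -0.83 ± 0.13 (adjusted p = 0.00142) and Irf9 by -0.48 ± 0.08 (adjusted p = 0.00121), as was Irf7, which encodes an interferon regulatory factor (-1.21 ± 0.20, adjusted p = 0.00288). Without the replicate block Stat2 lost the call, with the same estimate.

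Among effector genes, Ifi44 was at 32.4 to 88.7 CPM in RelA-dCterm and 116 to 224 CPM in RelA-dTAD (-1.65 ± 0.22, adjusted p = 4.82e-04). Oas1a, which encodes a sensor of double-stranded RNA, was at 5.52 to 13.2 CPM in RelA-dCterm and 28.9 to 65.1 CPM in RelA-dTAD (-2.30 ± 0.26, adjusted p = 1.05e-04). Iigp1, an immunity-related GTPase gene, was lower by -1.59 ± 0.24 (adjusted p = 0.00132). Among called genes with a mean of at least 5 CPM over the 10 libraries, Oas1g, a paralog of Oas1a, had the lowest ratio. It had 26 reads in the 5 RelA-dCterm libraries and 267 in the 5 RelA-dTAD libraries (-3.12 ± 0.28, adjusted p = 5.82e-09). That mean pools both lines, so a gene of few reads in 1 line, such as Oas1g in RelA-dCterm, can pass through the other. Slfn2 (-2.56 ± 0.33), Oas2 (-2.26 ± 0.39) and Sp100 (-2.14 ± 0.28) were among the 8 lowest too. The Oas and H2 families hold near-identical copies that can share reads, so the split between their members is uncertain. In the list, Irf1 (-0.49 ± 0.14, adjusted p = 0.0934) and Mx1 (-1.22 ± 0.36, adjusted p = 0.105) did not pass. Both were called lower with DESeq2 and with both RelA-dTAD libraries of a time, Irf1 also without the replicate block and Mx1 also in set 1 alone. The fit called set 1 alone, here and below, took only the 10 compared libraries. Its spread treats the 5 times of a line as replicates, although they come from the same population.

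The promoters of 4 genes are shown to place these differences beside the sequence, 300 bases each (250 before and 50 after the annotated start) from RefSeq on GRCm38.p6. Isg15 and H2-K1 stand for the genes that were lower, Cxcl10 for a chemokine gene that carries both kinds of motif, and Nfkbia for an NF-kB target that did not pass the test. Capitals mark matches to the interferon-stimulated response element GAAANNGAAA or to the kB motif, on either strand. All 4 windows lie on the minus strand and are written 5′ to 3′ of the gene. Isg15 is at chr4:156200769-156201068, Cxcl10 at chr5:92348840-92349139, H2-K1 at chr17:34000298-34000597 and Nfkbia at chr12:55492598-55492897.
Isg15: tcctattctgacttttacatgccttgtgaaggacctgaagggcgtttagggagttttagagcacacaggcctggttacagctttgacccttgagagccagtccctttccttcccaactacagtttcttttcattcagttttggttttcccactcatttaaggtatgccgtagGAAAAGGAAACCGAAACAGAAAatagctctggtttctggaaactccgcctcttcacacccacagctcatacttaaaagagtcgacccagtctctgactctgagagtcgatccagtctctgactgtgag
Cxcl10: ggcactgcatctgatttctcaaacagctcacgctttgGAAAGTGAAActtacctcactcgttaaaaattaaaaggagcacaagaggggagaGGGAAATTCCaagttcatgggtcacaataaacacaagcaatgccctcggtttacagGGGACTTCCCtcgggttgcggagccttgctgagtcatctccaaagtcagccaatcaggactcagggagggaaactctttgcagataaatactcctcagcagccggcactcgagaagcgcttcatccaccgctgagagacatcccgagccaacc
H2-K1: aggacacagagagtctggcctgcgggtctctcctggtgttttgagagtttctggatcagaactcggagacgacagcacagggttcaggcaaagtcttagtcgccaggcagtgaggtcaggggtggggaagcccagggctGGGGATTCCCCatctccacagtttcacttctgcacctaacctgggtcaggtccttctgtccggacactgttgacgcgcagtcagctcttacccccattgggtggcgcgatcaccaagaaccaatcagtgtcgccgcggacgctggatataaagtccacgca
Nfkbia: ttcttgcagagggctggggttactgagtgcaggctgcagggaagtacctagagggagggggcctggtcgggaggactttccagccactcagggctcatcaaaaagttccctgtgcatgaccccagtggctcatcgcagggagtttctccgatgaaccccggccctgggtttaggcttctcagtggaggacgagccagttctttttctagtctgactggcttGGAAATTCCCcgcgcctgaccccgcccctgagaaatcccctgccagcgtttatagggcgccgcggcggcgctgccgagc

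The capitals in Isg15 are 3 overlapping matches to the response element. Cxcl10 holds 1 such match followed by 2 kB matches. H2-K1 holds a palindromic run that matches the kB motif on both strands, and Nfkbia a single kB match. RefSeq windows were at hand for 193 of the 254 lower genes, 118 of the 161 higher genes and 11117 of the 15090 genes tested, and a gene can have more than 1 window. The response element was found in 70 of 262 windows of lower genes (26.7%), in 5 of 149 windows of higher genes (3.36%) and in 439 of 14228 windows of all genes tested (3.09%). The kB motif was found in 28 (10.7%), 5 (3.36%) and 778 (5.47%) of the same windows. Among the interferon genes, 18 of 33 windows (54.5%) held the response element. A match describes the letters of the window and does not show that a factor binds there.

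Antigen presentation on MHC class I differed in the same direction. Of 18 genes 16 were lower in RelA-dCterm (88.9%, beside 1.68% of all genes lower), with a median log2 of -0.90. When 1 time was left out 15 or 16 were lower, and without the replicate block 11 were. H2-K1, a class I heavy chain gene, was at 55.6, 60.7, 63.7, 56.5 and 110.2 CPM in RelA-dCterm, against 151, 119, 145, 156 and 273 CPM in RelA-dTAD (-1.28 ± 0.16, adjusted p = 2.17e-04). Each RelA-dCterm value was below all RelA-dTAD values. B2m, the light chain gene, was at 541, 518, 539.7, 529.9 and 601 CPM in RelA-dCterm, against 954, 766, 894, 906 and 975 CPM in RelA-dTAD (-0.72 ± 0.09, adjusted p = 3.11e-04). The peptide transporter genes Tap1 (-1.33 ± 0.21) and Tap2 (-1.10 ± 0.22), the immunoproteasome gene Psmb8 (-2.08 ± 0.34) and the class I transactivator gene Nlrc5 (-1.37 ± 0.27) were lower too. H2-Q4, another class I heavy chain gene, was lower by -2.27 ± 0.35, and the proteasome activator gene Psme1 by -0.36 ± 0.07. H2-K1, B2m, Tap2 and H2-Q4 lost the call without the replicate block, with the same estimates.

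Chemokine genes were mixed. Of 21 tested, 4 (19%, beside 1.68% of all genes lower) were lower in RelA-dCterm (Cxcl9, Cxcl10, Ccl2 and Ccl7) and none was higher. The median log2 was -0.63, which includes genes of few reads. In set 1 alone 6 were lower and 2 higher. Cxcl10, which attracts T cells, was at 16.8, 25.4, 41.3, 122 and 60.5 CPM in RelA-dCterm, against 45.0, 59.2, 62.2, 334 and 176 CPM in RelA-dTAD (-1.24 ± 0.10, adjusted p = 1.25e-06). RelA-dCterm was lower at each time, and EV cells were at 16.2, 29.8, 32.3, 99.9 and 47.8 CPM. Ccl2, which attracts monocytes, was at 8.49, 26.3, 31.8, 40.7 and 309 CPM in RelA-dCterm, against 29.6, 52.1, 83.1, 151 and 715 CPM in RelA-dTAD (-1.45 ± 0.20, adjusted p = 5.34e-04). Again RelA-dCterm was lower at each time. Ccl7, another monocyte chemokine gene, was lower by -1.28 ± 0.22 (adjusted p = 0.00385). Cxcl9, another T cell chemokine gene, had 35 reads in RelA-dCterm and 313 in RelA-dTAD over the 5 times (-2.87 ± 0.32, adjusted p = 4.38e-07). At 0 h it had 1 read against 23, a ratio of 17.5 for RelA-dTAD over RelA-dCterm with a 95% interval of 2.85 to 722. Ccl5 (-0.80 ± 0.23, adjusted p = 0.0909) and the neutrophil chemokine gene Cxcl1 (-0.17 ± 0.27, adjusted p = 0.917) did not pass. Ccl5 was called lower without the replicate block, with both RelA-dTAD libraries of a time, with DESeq2 and in set 1 alone.

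**Figure D2:**
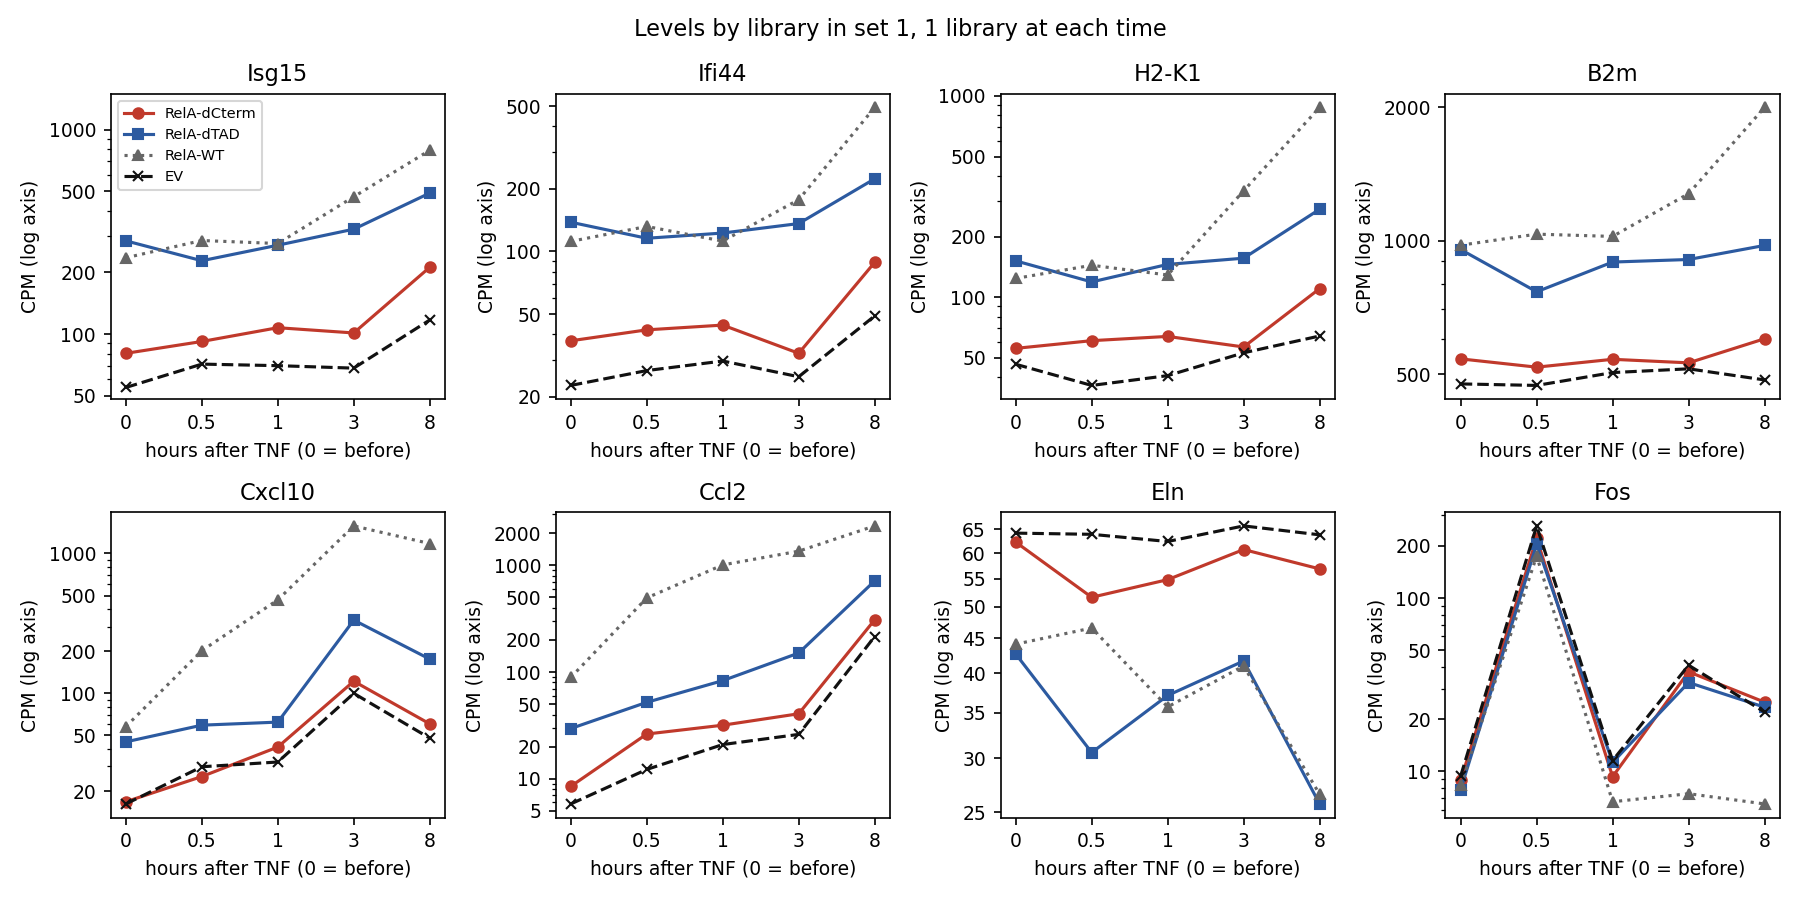
Level in CPM (log axis) of 8 genes at 0, 0.5, 1, 3 and 8 h after TNF, with 1 library per point, in RelA-dCterm, RelA-dTAD, RelA-WT and EV cells of set 1. For Isg15, Ifi44, H2-K1, B2m, Cxcl10 and Ccl2 the RelA-dCterm points lie below RelA-dTAD at each time, for Eln above, and for Fos the lines lie close together with 221 CPM in RelA-dCterm and 204 CPM in RelA-dTAD at 0.5 h.

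Of 27 NF-kB feedback and signalling genes 1 was lower (3.7%, beside 2.75% of all genes called) and the list's median was -0.05. It was Tank, an adaptor gene (-0.28 ± 0.07, adjusted p = 0.0208), which lost the call without the 8 h pair, without the replicate block and with DESeq2. Nfkbia, which encodes IkBa, was at 29.5, 31.9, 29.6, 46.9 and 85.5 CPM in RelA-dCterm, against 32.2, 36.2, 50.0, 59.4 and 105 CPM in RelA-dTAD (-0.34 ± 0.14, adjusted p = 0.300). It was the lower of the pair at each time, yet the ranges of the lines overlapped. RelA-WT cells reached 1078 CPM at 1 h. For Tnfaip3, which encodes the deubiquitinase A20, the difference was -0.89 ± 0.25 (adjusted p = 0.0939), for Birc3, an inhibitor of apoptosis, -0.31 ± 0.11 (adjusted p = 0.172) and for Nfkbie -0.34 ± 0.33 (adjusted p = 0.779). Tnfaip3 was called lower with DESeq2, and in set 1 alone Tnfaip3, Nfkbia and Birc3 were.

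Of 16 adhesion and complement genes 1 was lower (6.25%, beside 2.75% of all genes called), Vcam1, which lets leukocytes adhere. It was at 151, 147, 167, 169 and 277 CPM in RelA-dCterm, against 183, 195, 217, 311 and 469 CPM in RelA-dTAD (-0.54 ± 0.12, adjusted p = 0.0250). RelA-dCterm was lower at each time, but the call was lost without the 3 h pair (-0.46), without the 8 h pair (-0.48) and in set 1 alone (-0.55). Icam1, another adhesion gene, differed by -0.05 ± 0.63, the E-selectin gene Sele by -0.56 ± 0.50 and the pentraxin gene Ptx3 by -0.54 ± 0.19, none past the threshold. Sele was called lower in set 1 alone, by -1.03, and Ptx3 with DESeq2. Among 27 cytokine and growth factor genes 1 was lower (3.7%), Fgf7 (-0.26 ± 0.06, adjusted p = 0.0110). Il6 had 18 reads in RelA-dCterm and 68 in RelA-dTAD over the 5 times, a ratio of 0.325 (95% interval 0.182 to 0.553), and did not pass in the fit (adjusted p = 0.0939). The macrophage growth factor gene Csf1 (-0.21 ± 0.11), Sod2, the mitochondrial superoxide dismutase gene (-0.04 ± 0.09), and the death receptor gene Fas (-0.74 ± 0.25) did not pass either. In set 1 alone Il6, Csf1 and Fas were called lower, with DESeq2 Il6 and Fas, and with both RelA-dTAD libraries Il6. Of 20 survival and redox genes 1 was lower (5%), the stress gene Gadd45b (-0.29 ± 0.08, adjusted p = 0.0262). The Gadd45b call was lost when the 0.5, 1, 3 or 8 h pair was left out. It was also lost without the replicate block, with DESeq2 and with both RelA-dTAD libraries. With 1 call each, these lists are not set apart from all genes tested.

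The higher genes had smaller differences. Lrrn4, a leucine-rich repeat gene, had the highest difference among called genes with a mean of at least 5 CPM over both lines. It was at 7.53 to 9.70 CPM in RelA-dCterm, the line that carries it past that mean, against 2.45 to 4.89 CPM in RelA-dTAD (1.24 ± 0.18, adjusted p = 3.47e-05). Each RelA-dCterm value exceeded each RelA-dTAD value. Others among the 8 highest were Smpd3, a neutral sphingomyelinase gene (1.07 ± 0.15), Lrrtm3, a synaptic adhesion gene (0.94 ± 0.17), and Podxl, which encodes podocalyxin (0.94 ± 0.18), together with the uroplakin gene Upk3b (0.91 ± 0.15), the homeobox gene Msx1 (0.90 ± 0.16) and the insulin-like growth factor binding protein gene Igfbp2 (0.89 ± 0.13). These genes lost the call without the replicate block, and Lrrtm3 also with both RelA-dTAD libraries of a time, where its difference was 0.58.

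Of 34 extracellular matrix genes 7 were higher in RelA-dCterm (20.6%, beside 1.07% of all genes higher) and none was lower, with a median log2 of 0.13. They were Eln, Thbs2 and 5 collagen genes (Col3a1, Col4a1, Col4a2, Col5a1 and Col11a1). Eln, the elastin gene, was at 62.3, 51.7, 54.8, 60.7 and 56.9 CPM in RelA-dCterm, against 42.7, 30.6, 37.1, 41.7 and 25.7 CPM in RelA-dTAD (0.71 ± 0.12, adjusted p = 0.00239). The lines did not overlap. Col6a3 (0.39 ± 0.10, adjusted p = 0.0566) and Col12a1 (0.42 ± 0.16, adjusted p = 0.264) did not pass, although Col6a3 did with DESeq2 and without the 8 h pair. Without the replicate block no matrix gene passed, and in set 1 alone 15 were higher and 1 lower. Col3a1 (0.18 ± 0.05, adjusted p = 0.0399) lost the call in 9 of 11 alternatives.

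Beside these higher genes, 1 of 4 epithelial markers (25%, beside 1.07% of all genes) was higher in RelA-dCterm, the keratin gene Krt18 (1.26 ± 0.33, adjusted p = 0.0274). Krt18 had 11, 6, 10, 14 and 32 reads in RelA-dCterm and 5, 6, 4, 7 and 12 in RelA-dTAD. Of the 4 markers 1 went the other way, at -0.23, and did not pass. Krt8 had 0 or 1 read in every library, and the summed level of the 4 was 4.09 to 10.5 CPM in RelA-dCterm and 3.54 to 5.30 CPM in RelA-dTAD. Their part in the differences was not tested. In bulk RNA, fewer cells of a type and less RNA per cell cannot be told apart. Fibroblast markers summed to 48382 to 55248 CPM in RelA-dCterm and 45066 to 53549 CPM in RelA-dTAD, with 1 of 11 higher (Col3a1, 9.09%). Macrophage markers were near 0 in both lines, at 3.03 to 7.61 CPM in RelA-dCterm and 3.87 to 6.96 CPM in RelA-dTAD, and no macrophage, endothelial, muscle, neural or fat marker passed.

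The basal level and the change with TNF were then taken apart. At 0 h 1 of 15090 genes was higher (0.00663%) and no gene was lower. By edgeR 764 genes had an unadjusted p under 0.05, and DESeq2 called 2 genes higher and 40 lower at 0 h. All 38 interferon genes were below 0 at 0 h, with a median log2 of -1.16, and all 18 MHC class I genes, with a median of -0.91, though none passed singly. Isg15 differed at 0 h by -1.83 ± 0.52 (adjusted p = 0.580), H2-K1 by -1.45 ± 0.36 (adjusted p = 0.539) and Cxcl10 by -1.42 ± 0.28 (adjusted p = 0.189). The median over all genes tested at 0 h was 0.001.

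No gene passed the test of a difference in the TNF change (0% of 15090), taken as the mean of the 4 TNF times minus 0 h. By edgeR 380 genes had an unadjusted p under 0.05, and DESeq2 called none. The interferon genes had a median difference of 0.13 in the TNF change (range -0.57 to 0.62) and the MHC class I genes one of 0.04, against -0.003 for all genes. The difference in the TNF change was 0.44 ± 0.58 for Isg15, 0.21 ± 0.40 for H2-K1, 0.22 ± 0.31 for Cxcl10, 0.43 ± 0.68 for Ccl2, -0.27 ± 0.37 for Nfkbia and -0.33 ± 0.31 for Vcam1. With errors of this size, these values do not show that the lines changed alike.

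**Figure D3:**
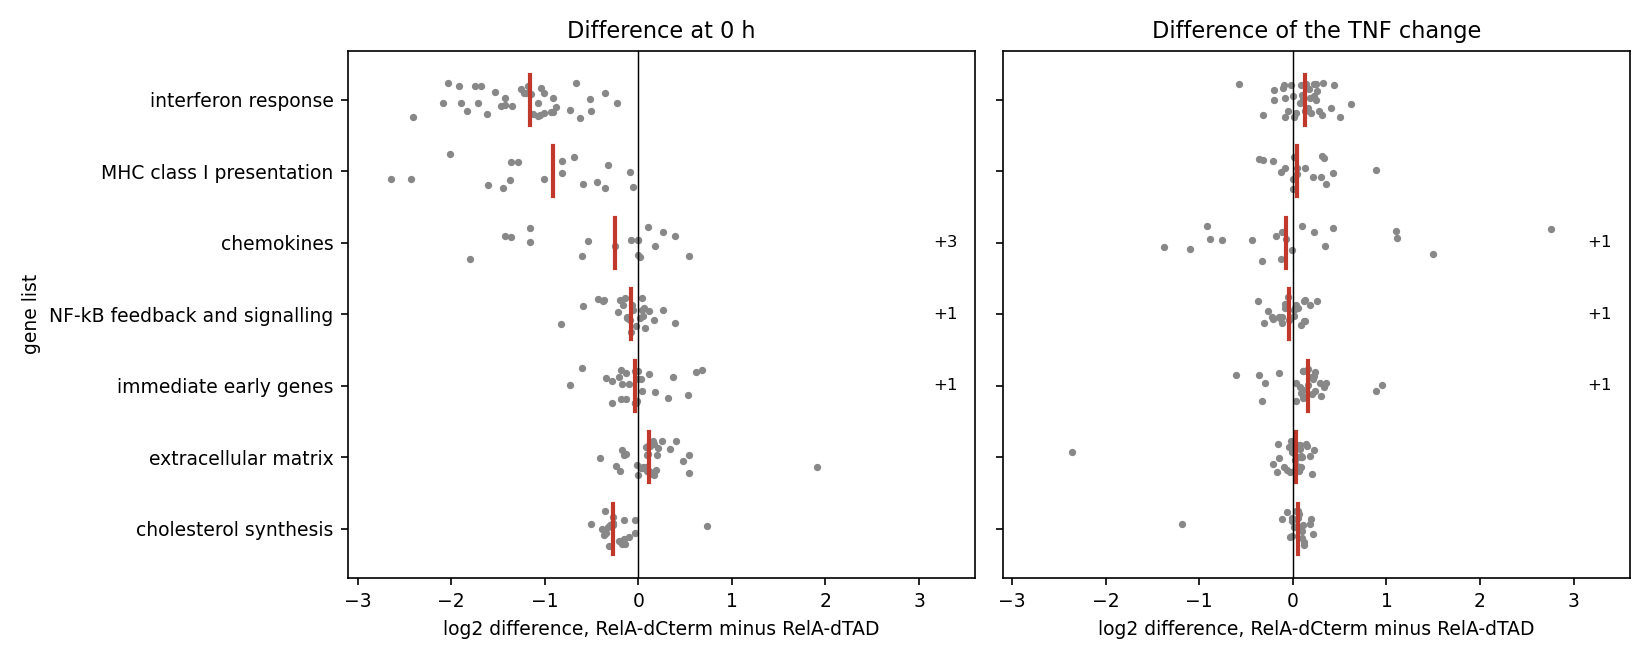
Log2 difference between RelA-dCterm and RelA-dTAD for each gene of the lists, at 0 h and in the change with TNF (mean of 4 TNF times minus 0 h), with a bar at each list's median and the number of genes beyond the axis at its right end. The interferon and MHC class I genes lie below 0 at 0 h, with medians of -1.16 and -0.91, and spread around 0 in the TNF change, with medians of 0.13 and 0.04.

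Within each line, TNF changed many genes. In RelA-dCterm 891 genes rose (5.9% of 15090) and 684 fell (4.53%), 10.4% in all. In RelA-dTAD 861 rose (5.71%) and 632 fell (4.19%), 9.89% in all. Without the replicate block 299 rose and 128 fell in RelA-dCterm, and 210 rose and 69 fell in RelA-dTAD. Immediate early genes, which respond without new protein synthesis, rose in 28 of 29 cases in each line, with a median log2 of 1.99 in RelA-dCterm and 1.81 in RelA-dTAD. None of the 29 passed the test of its mean between the lines (median 0.07), where Fos differed by 0.06 ± 0.23, Egr1 by 0.05 ± 0.18 and Nr4a1 by 0.34 ± 0.22. Nr4a1 was called higher in set 1 alone. Fos was at 8.89, 221, 9.32, 37.5 and 25.1 CPM in RelA-dCterm, against 7.85, 204, 11.3, 32.5 and 23.5 CPM in RelA-dTAD. Its peak at 0.5 h was a log2 rise of 4.63 ± 0.42 in RelA-dCterm and 4.70 ± 0.41 in RelA-dTAD.

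Of the 21 chemokine genes 3 (14.3%) rose with TNF in RelA-dCterm (Cxcl10, Ccl2 and Ccl7), beside 5.9% of all genes tested. In RelA-dTAD 4 rose (19%), those 3 and Cxcl1, beside 5.71% of all genes tested. Cxcl10 rose by 1.65 ± 0.24 in RelA-dCterm (adjusted p = 2.57e-04) and by 1.43 ± 0.18 in RelA-dTAD (adjusted p = 7.31e-05). Ccl2 rose by 2.74 ± 0.50 in RelA-dCterm (adjusted p = 0.00289) and by 2.31 ± 0.35 in RelA-dTAD (adjusted p = 7.67e-04), and Ccl7 by 2.08 ± 0.56 in RelA-dCterm and 1.98 ± 0.38 in RelA-dTAD. Of the 27 feedback genes 4 (14.8%) rose in RelA-dCterm (Nfkbiz, Chuk, Map3k14 and Tank) and 6 (22.2%) in RelA-dTAD, those 4 with Nfkbia and Bcl3. Nfkbia changed by 0.58 ± 0.27 in RelA-dCterm (adjusted p = 0.202) and rose by 0.85 ± 0.24 in RelA-dTAD (adjusted p = 0.0376), a difference that did not pass. No interferon or MHC class I gene passed for the TNF change in either line. Of all genes tested 10.4% passed in RelA-dCterm and 9.89% in RelA-dTAD.

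At single times after TNF the counts were small. No gene passed at 0.5 h or 1 h (0% each): by edgeR 959 and 696 genes had an unadjusted p under 0.05, and DESeq2 called 1 higher and 11 lower at 0.5 h and 2 higher and 3 lower at 1 h. At 3 h 7 genes were higher (0.0464%) and 12 lower (0.0795%), 0.126% in all. At 8 h 10 were higher (0.0663%) and 24 lower (0.159%), 0.225% in all. Oas1g was lower at both times, by -4.02 ± 0.68 at 3 h and -3.26 ± 0.52 at 8 h, as were Cxcl10 (-1.45 ± 0.18 and -1.54 ± 0.21) and Cxcl9 (-2.10 ± 0.40 and -3.51 ± 0.31). At 3 h the immunoproteasome gene Psmb10 was lower (-1.11 ± 0.20). At 8 h the interferon-induced GTPase gene Tgtp1 (-2.18 ± 0.47), Sp100 (-1.92 ± 0.43) and Tank (-0.72 ± 0.14) were lower, and the growth factor gene Areg was higher (adjusted p = 0.0220).

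Each line was also set against EV cells, a comparison added after the values had been seen, and both share the EV libraries. EV was taken here from its libraries in both sets, with the set as a term, whereas the EV levels above are those of set 1. RelA-dCterm differed from EV in 1 of 15090 genes (0.00663%), Rela itself, higher by 5.46 ± 0.14, and no gene was lower. By edgeR 867 genes had an unadjusted p under 0.05, DESeq2 called 4 genes higher and none lower, and without 0.5 h or without 1 h edgeR called 2 higher. RelA-dTAD was higher than EV in 543 genes (3.6%) and lower in 413 (2.74%), 6.34% in all, with 263 lower without 0.5 h and 268 without 3 h. Of the 38 interferon genes none passed in RelA-dCterm (median log2 over EV 0.26, 36 above 0) and 38 were higher in RelA-dTAD (median 1.39). Of the 18 MHC class I genes none passed in RelA-dCterm (median 0.17, with 0 genes below 0) and 17 were higher in RelA-dTAD (median 1.15). Isg15 stood at 0.28 ± 0.22 over EV in RelA-dCterm and 1.75 ± 0.20 in RelA-dTAD, and Ccl2 at 0.78 ± 0.22 in RelA-dCterm and 2.23 ± 0.17 in RelA-dTAD. Among matrix genes none passed in RelA-dCterm, and 13 of 34 were lower in RelA-dTAD.

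**Figure D4:**
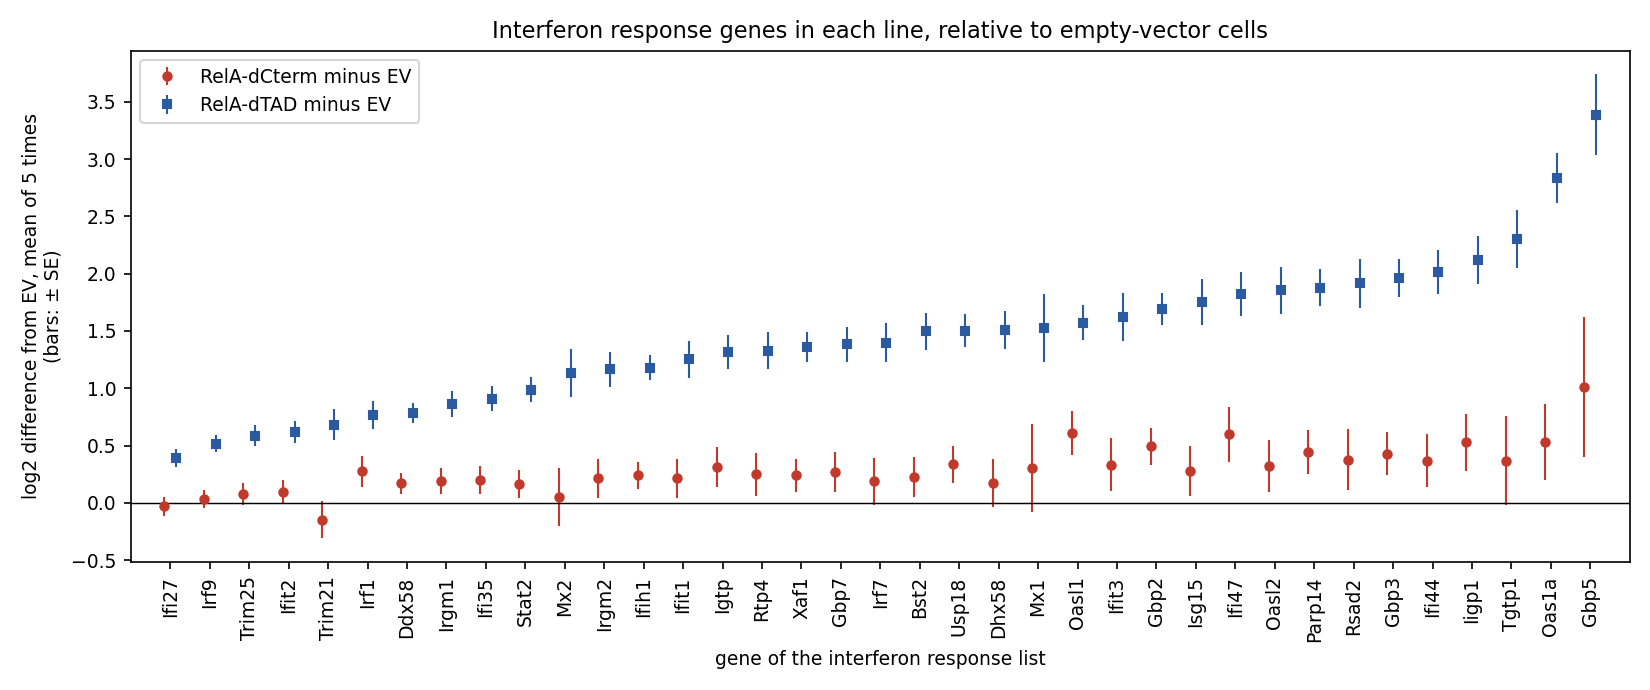
Log2 difference from EV cells, averaged over the 5 times, of the interferon genes in RelA-dCterm and in RelA-dTAD, 1 point per gene and line with bars of ± SE. EV was taken from both sets with the set as a term. The medians over the 38 genes, of which 1 is not drawn, are 0.26 in RelA-dCterm and 1.39 in RelA-dTAD.

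The 254 and 161 genes were also read in libraries outside the comparison. RelA-dTAD was sequenced again in set 2, and there 245 of the 254 lower genes (96.5%) were above EV of set 2, against 48.3% of all genes tested, with a median log2 of 0.69. In set 1, RelA-WT was above EV for 233 of them (91.7%), against 45.7% of all genes, with a median of 1.05. The 161 higher genes were above EV in RelA-dTAD of set 2 for 21 genes (13%). In the compared libraries themselves, which chose the 254 genes, the median over EV of set 1 was 0.16 in RelA-dCterm and 0.81 in RelA-dTAD. The gap between these medians follows from that choice and is no separate evidence.

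Of 21 cholesterol synthesis genes 3 were lower in RelA-dCterm (14.3%, beside 1.68% of all genes lower) and 20 were below 0 (median -0.19). Among the 3 were the sterol carrier gene Stard4 (-0.37 ± 0.08, adjusted p = 0.00502) and the mevalonate kinase gene Mvk (-0.36 ± 0.08, adjusted p = 0.00844), and both lost the call when both RelA-dTAD libraries of a time were used. Fdps (-0.42 ± 0.14, adjusted p = 0.135) did not pass, but did in set 1 alone. Of 20 actin and SRF genes 1 was lower (5%), the myosin light chain kinase gene Mylk (-0.44 ± 0.11, adjusted p = 0.0160). Of 32 cell cycle genes 1 was lower (3.12%), the replicative helicase gene Mcm6 (-0.21 ± 0.05, adjusted p = 0.0160). Both calls were lost in several alternatives. None of 18 ERK output, 22 matrix protease and inhibitor, 18 ribosome biogenesis, 22 glycolysis, 17 unfolded protein response, 20 p53 target or 18 TGF-beta genes passed for the mean over 5 times, the protease genes Mmp3 (-0.85 ± 0.33), Adamts4 (-0.31 ± 0.09) and Plau (-0.22 ± 0.07) included. These 3 were called lower in set 1 alone, Mmp3 also with DESeq2, and Adamts4 also without the filter on low counts and without the 0 h or the 0.5 h pair. At 8 h 1 of the 22 protease and inhibitor genes was lower.

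The RelA-dCterm libraries held 4467746 to 5455685 counted reads and the RelA-dTAD libraries 5502753 to 6350125, with 16043 to 16461 genes detected in RelA-dCterm and 16132 to 17175 in RelA-dTAD. The mitochondrial share was 0.46% to 1.369% in RelA-dCterm and 0.534% to 1.923% in RelA-dTAD. In single pairs, genes with at least 20 reads past 2-fold numbered 51 higher and 141 lower at 0 h and 93 higher and 158 lower at 8 h, a description of lone libraries with no replicate check.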

How the data were processed

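Values are read counts per gene, deposited by the authors. Per the submitters' processing notes, reads were trimmed with cutadapt 1.9.1, aligned with STAR to mm10 and counted with featureCounts 1.5.0, and DESeq2 is named. The strand setting and the handling of reads with several matches are not given in the sources used here, so overlapping, antisense and near-identical genes are uncertain. All 75 libraries were fitted together in edgeR 4.0.16 (R 4.3.3) with TMM scaling, filterByExpr (15090 genes kept), 1 mean per construct and time, RelA-dTAD split by set, and the set as a term. Tests were robust quasi-likelihood tests, two-sided, with Benjamini-Hochberg adjustment over all 15090 genes and a threshold of 0.05. The spread has 14 residual degrees of freedom from 15 groups sequenced in both sets (EV, RelA-WT and RelA-dTA1). The set is also the replicate number: same-numbered libraries deviated together (correlation 0.291 to 0.549 over 190 pairs of groups), so it was kept as a block. DESeq2 1.42.0 was an alternative. CPM use TMM-scaled totals, and log2 differences are RelA-dCterm minus RelA-dTAD unless another pair is named. Intervals of read ratios are 95% exact conditional binomial, cover counting error only, and PCR copies are not independent molecules.

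None of the 10 libraries repeated another. The labels do not say whether libraries are separate cultures. In the main fit p-values rest on the spread between the EV, RelA-WT and RelA-dTA1 libraries of both sets, which may be technical. They do not measure the spread of the 10 compared libraries. The members and the gene lists were chosen with earlier results of these data known. Genes were named by rule: the NF-kB subunits, the 8 highest and 8 lowest genes past the threshold, the 3 largest differences in each list, and a set of known NF-kB and immediate early targets. The highest, lowest and largest had a mean of at least 5 CPM over the 10 libraries, both lines pooled. Isg15, Stat2, Irf7, Irf9, Mx1, H2-K1, B2m, Tap1, Tap2, Psme1, Ccl7, Cxcl9, Tank, Fgf7, Gadd45b, Mvk, Col3a1, Krt18, the genes named at single times and genes named beside a list's count were added after their values were seen. The code was tested on simulated counts. Promoter windows are RefSeq sequences on GRCm38.p6, and windows of other named genes are not shown. A few genes that meet these rules or belong to these lists are counted but not reported here.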

Additional observations from a re-analysis of the deposited data

How the results depend on the processing

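Without the set as a replicate block, 13 genes were higher and 130 lower in RelA-dCterm on average over the 5 times, 0 and 0 at 0 h, 0 and 1 at 3 h and 0 and 3 at 8 h. In that fit 299 rose and 128 fell with TNF in RelA-dCterm, 210 and 69 in RelA-dTAD, and RelA-dTAD against EV had 341 higher and 187 lower. All 13 and 128 of the 130 were among the 161 and 254 genes called with the block. With both RelA-dTAD libraries of a time, 95 genes were higher on average, 78 of them among the 161. In the other direction 249 were lower, 211 of them among the 254. At single times, 0 and 3 (higher and lower) passed at 0 h, 2 were lower at 0.5 h, 1 was higher at 1 h, and 11 and 70 passed at 3 h and 29 and 114 at 8 h. There 2080 rose and 2002 fell with TNF in RelA-dTAD, and 893 were higher and 627 lower than EV. In set 1 alone, which took only the 10 compared libraries with time as a block, 332 genes were higher and 413 lower on average. That spread treats the 5 times of a line as replicates. DESeq2 called 2 higher and 40 lower at 0 h, 1 and 11 at 0.5 h, 2 and 3 at 1 h, 14 and 89 at 3 h, 58 lower at 8 h, and 4 higher in RelA-dCterm against EV. Without a filter on low counts 2 were lower at 0 h, 2 higher and 1 lower at 0.5 h and 2 higher at 1 h. The cause was not tested.

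Leaving out 1 time at a time gave 100 to 140 higher and 191 to 222 lower genes on average, 1 to 2 higher in RelA-dCterm against EV, and 415 to 497 higher and 263 to 359 lower in RelA-dTAD against EV. Changes of sign were looked for only in a chosen set of single genes, not in all genes tested. They touched 6 of that set, with no call on either side. When 1 time was left out, the log2 difference ran from -0.1176 to 0.0783 for Relb, -0.2666 to 0.2376 for Icam1, -0.1083 to 0.0176 for Sod2 and -0.0034 to 0.1038 for Egr1, and that in Rela's TNF change from -0.0449 to 0.0857. With both RelA-dTAD libraries it was -0.537 for Icam1, -0.1448 for Relb, -0.0229 for Fos, -0.0272 for Egr1 and -0.0049 for Rela's TNF change. The difference in the TNF change had no call under any alternative run. Depth limits genes of few reads such as Il6, Cxcl9 and Oas1g, and 1 library per line and time limits all of it.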

Other observations

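Beside the immediate early genes, genes of growth signalling rose with TNF within each line, where 5.9% of all genes rose and 4.53% fell in RelA-dCterm and 5.71% rose and 4.19% fell in RelA-dTAD. Of 18 genes of ERK output 11 rose in RelA-dCterm and 10 in RelA-dTAD, with median log2 changes of 0.94 in RelA-dCterm and 0.92 in RelA-dTAD and none lower. Dusp6, which encodes a phosphatase that switches ERK off, rose by 0.89 ± 0.18 in RelA-dCterm (adjusted p = 0.00130) and by 1.14 ± 0.18 in RelA-dTAD (adjusted p = 8.32e-05). Of 18 genes of Myc and ribosome biogenesis 11 rose in each line, with a median of 0.58 in both. Myc itself rose by 1.64 ± 0.26 in RelA-dCterm (adjusted p = 0.00105) and by 1.40 ± 0.25 in RelA-dTAD (adjusted p = 0.00257), and the growth factor gene Ereg by 1.98 ± 0.45 in RelA-dCterm (adjusted p = 0.0103) and 2.48 ± 0.49 in RelA-dTAD (adjusted p = 0.00435). Nfkb2 rose by 0.45 ± 0.11 in RelA-dCterm (adjusted p = 0.00837) and by 0.49 ± 0.11 in RelA-dTAD (adjusted p = 0.00263). Msx1 fell by 0.87 ± 0.22 on the log2 scale in RelA-dCterm (adjusted p = 0.00819) and by 0.84 ± 0.25 in RelA-dTAD (adjusted p = 0.0309). None of these genes passed the test of a difference in the TNF change between the lines. Dusp6, Myc and Ereg were named after their values were seen.

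Of 20 actin and SRF genes 9 rose in each line, with 1 lower in RelA-dCterm and none in RelA-dTAD. Among all genes tested 5.9% rose and 4.53% fell in RelA-dCterm, and 5.71% rose and 4.19% fell in RelA-dTAD. Of 20 p53 targets, in cells without p53, 5 rose and 3 fell in RelA-dCterm and 4 rose and 2 fell in RelA-dTAD. No cholesterol synthesis gene passed for the TNF change in either line.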
